A study of Homo sapiens with 6 samples.

Results

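The mitochondrial ribosomal protein genes are the nuclear genes that encode the proteins of the mitochondrial ribosome. They were taken from the table as the protein-coding genes whose symbol begins MRPL (large subunit) or MRPS (small subunit) followed by digits. This gave 78 genes, 49 MRPL and 29 MRPS, of 22153 genes in the table and 14565 protein-coding ones, and no gene of GENCODE release 29 that meets the rule was outside the table. Levels were compared in EA.hy926 cells, a human hybrid line derived from an umbilical vein endothelial cell and the A549 lung carcinoma line. The normoxia group was 3 libraries of cells at 20% oxygen, and the hypoxia group was 3 libraries of the same line at 1% oxygen for 8 h, reached after the cultures were nearly confluent. Both groups share the line and the medium, high-glucose DMEM with serum and antibiotics, and no genetic change or other treatment is named. Polyadenylated RNA was sequenced, and the question named for the series is which genes change after 8 h of low oxygen. Since the labels do not name replicates as separate cultures, the spread that the p-values rest on is that between samples and may be technical. In bulk RNA, fewer cells of a type and less RNA per cell cannot be told apart.

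The mitochondrial ribosome translates the few proteins encoded by mitochondrial DNA, which are core subunits of the respiratory chain and of ATP synthase. Its RNAs are transcribed in the organelle, whereas all of its proteins are encoded in the nucleus, made in the cytosol and imported. Some of these proteins belong to families shared with the bacterial ribosome, and others are found only in mitochondrial ribosomes. Low oxygen reduces the use of the respiratory chain, and factors such as NRF1, the ETS factor GABP and YY1 are known to bind promoters of nuclear genes for mitochondrial proteins.

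The libraries held 17226736 to 18652704 reads assigned to genes, and reads fell in 16741 genes in normoxia replicate 3 and in 18214 to 18858 genes in each of the others. The hypoxia labels were checked on BNIP3, a mitophagy receptor and target of the hypoxia-inducible factors, which rose by 3.47 ± 0.21 (SE) on the log2 scale (limma adjusted p = 0.00207). PGK1 and LDHA, enzymes of glycolysis and lactate formation, rose by 1.77 and 1.70 (limma adjusted p = 0.0236 for each). Of 13 endothelial markers 11 had a mean of at least 100 size-factor-scaled reads, with CLDN5 and EMCN near 0. Of 8 epithelial markers 3 did (KRT7, KRT8 and KRT18), as did 2 of 7 fibroblast and mural markers and 0 of 5 leukocyte markers.

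Promoter sequences of 7 members are shown, for their differences or for letters that stood more often before these genes than before all protein-coding genes. MRPL17, MRPL4, MRPS6 and MRPS18C had the largest positive and negative differences of each subunit. MRPL54 and MRPS34 had the highest levels in their subunits among members with a RefSeq entry that carries the ETS letters in this stretch, and MRPL52 the highest level among large subunit members with the YY1 letters in it. Each is the 250 bases before the RefSeq transcription start on build GRCh38.p14, the most upstream start where there are several, written along the gene's own strand. Capitals mark matches, on either strand, to the palindromic NRF1 element with a free central base, CCGGAAG (ETS factors), AANATGGCG (YY1) and to ACGTG or GCGTG, the core of the element bound by hypoxia-inducible factors.
MRPL17 (chr11:6683341-6683590, minus strand): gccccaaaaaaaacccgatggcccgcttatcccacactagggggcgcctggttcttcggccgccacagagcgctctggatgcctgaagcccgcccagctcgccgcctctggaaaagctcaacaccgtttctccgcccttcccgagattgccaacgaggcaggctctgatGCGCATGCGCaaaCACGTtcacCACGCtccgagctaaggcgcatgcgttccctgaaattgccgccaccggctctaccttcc
MRPL4 (chr19:10251701-10251950, plus strand): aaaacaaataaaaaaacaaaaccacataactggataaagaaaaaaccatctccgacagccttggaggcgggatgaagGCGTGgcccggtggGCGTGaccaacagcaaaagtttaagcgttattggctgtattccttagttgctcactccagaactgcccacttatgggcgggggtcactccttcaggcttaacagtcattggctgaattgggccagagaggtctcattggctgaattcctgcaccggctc
MRPL54 (chr19:3762432-3762681, plus strand): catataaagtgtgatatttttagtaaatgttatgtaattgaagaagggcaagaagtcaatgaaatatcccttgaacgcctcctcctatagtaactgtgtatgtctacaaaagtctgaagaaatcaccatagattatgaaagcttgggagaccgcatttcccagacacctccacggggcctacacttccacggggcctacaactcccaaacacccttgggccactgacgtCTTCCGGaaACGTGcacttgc
MRPL52 (chr14:22829637-22829886, plus strand): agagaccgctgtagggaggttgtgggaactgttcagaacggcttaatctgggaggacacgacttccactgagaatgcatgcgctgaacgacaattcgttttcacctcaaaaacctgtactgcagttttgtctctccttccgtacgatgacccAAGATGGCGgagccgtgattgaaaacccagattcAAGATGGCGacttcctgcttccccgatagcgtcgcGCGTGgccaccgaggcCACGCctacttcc
MRPS6 (chr21:34073328-34073577, plus strand): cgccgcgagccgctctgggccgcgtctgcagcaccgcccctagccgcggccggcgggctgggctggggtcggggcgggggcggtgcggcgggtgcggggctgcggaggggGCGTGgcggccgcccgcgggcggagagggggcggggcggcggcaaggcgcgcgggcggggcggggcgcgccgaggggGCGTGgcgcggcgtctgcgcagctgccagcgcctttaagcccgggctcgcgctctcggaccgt
MRPS18C (chr4:83455808-83456057, plus strand): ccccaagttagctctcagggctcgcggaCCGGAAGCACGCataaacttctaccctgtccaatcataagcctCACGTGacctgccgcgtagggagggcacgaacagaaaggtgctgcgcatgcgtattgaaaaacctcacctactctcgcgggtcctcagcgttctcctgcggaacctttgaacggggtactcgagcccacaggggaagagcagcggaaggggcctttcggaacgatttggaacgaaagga
MRPS34 (chr16:1773135-1773384, minus strand): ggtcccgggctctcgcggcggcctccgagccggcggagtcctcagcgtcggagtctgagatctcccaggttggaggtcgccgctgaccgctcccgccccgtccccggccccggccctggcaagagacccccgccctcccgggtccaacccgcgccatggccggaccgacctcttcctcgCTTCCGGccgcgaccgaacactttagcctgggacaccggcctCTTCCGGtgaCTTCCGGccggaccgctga

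The MRPL17 stretch holds an NRF1 match with an ACGTG and a GCGTG match close by, MRPS34 holds 3 ETS matches and MRPL52 holds 2 YY1 matches. RefSeq windows of 300 bases (250 before to 50 after a start) were found for 69 of the 78 members, 85 windows in all, and were set beside 22199 windows of all protein-coding genes. A gene with several starts has several windows, which can overlap, as for MRPS12, MRPL47 and MRPS22, and each window was counted. CCGGAAG stood in 38.8% of the members' windows and in 12.8% of all windows. AANATGGCG stood in 21.2% against 4.24%, and the NRF1 element with a free central base in 11.8% against 7.39%. With the central base fixed, the NRF1 element stood in 1.18% (1 of 85 windows) against 1.5%. The letters CCAAT stood in 32.9% against 34.7%, so neither of these was more frequent in the members' windows. The core ACGTG stood in 29.4% against 23% and GCGTG in 55.3% against 43%. Matches of the ETS and YY1 letters overlapped in 0 member windows, and those of ACGTG and GCGTG in 1. Those of GCGTG and the NRF1 element with a free base overlapped in 3. These are matches of letters, not measured binding. The 24 tested members with ACGTG had a median log2 difference between hypoxia and normoxia of 0.06 (20 positive), and the 42 without it 0.03 (23 positive). The 28 tested members with the ETS letters had a median of 0.03 and the 38 without them 0.06.

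Mitochondrial ribosomal protein genes were expressed in these cells over a wide range. Reads were found in all 6 libraries for 77 of the 78. On an FPKM scale, the deposited values divided by exon length and mean library total, 75 genes reached 1 in at least 3 libraries and were tested (47 large, 28 small). The median level of the tested genes was 21.3 in the large subunit and 10.8 in the small subunit, against 5.88 over all 10237 genes tested. MRPS34, a protein found only in mitochondrial small subunits, had the highest level, 149 in normoxia and 164 in hypoxia. MRPL41, specific to mitochondrial large subunits, followed at 147 and 142, and MRPL15, of a family shared with bacteria, at 123 and 135. MRPS26 was the second highest of the small subunit, at 64.1 and 64.8.

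The 3 untested genes lay at the low end of the range. MRPS24 was counted with 0, 1 and 0 reads at normoxia and with 7, 2 and 1 at hypoxia, at or near the limit of detection, so no ratio is given. Its exons share 606 bases with the read-through gene URGCP-MRPS24 on the same strand. MRPL38 had 14 to 55 reads per library and shares 1373 exon bases with the protein-coding gene AC087289.3, and MRPL53 had 12 to 21 reads and shares 608 bases with CCDC142, both on the same strand. The lowest tested small subunit member was MRPS17, at 1.79 in normoxia and 1.86 in hypoxia on the FPKM scale. The sources used here do not give how reads in exons shared by several genes were counted, so the low values of these genes are uncertain.

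**Figure D1:**
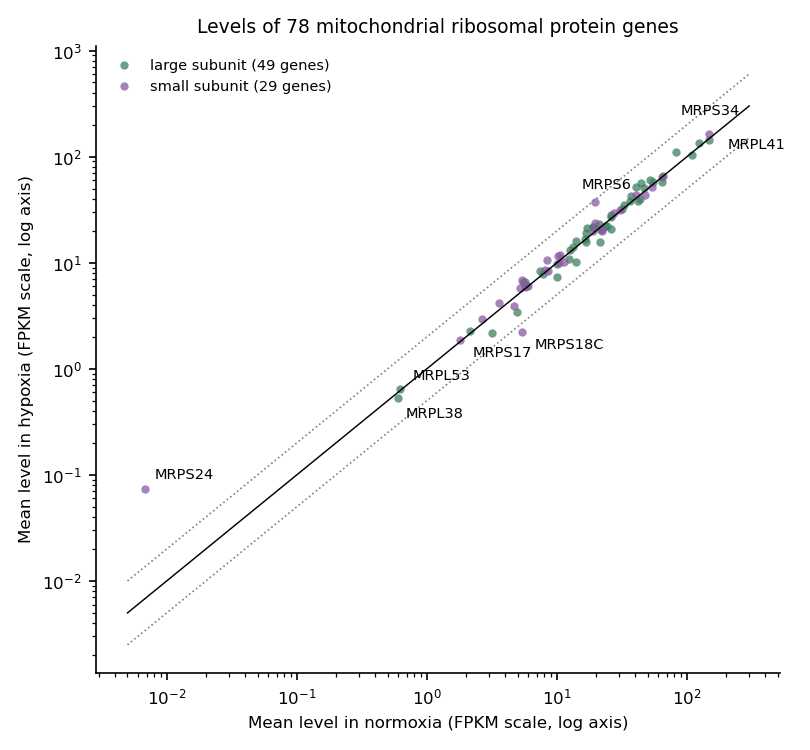
Mean level of each of the 78 genes in normoxia (x axis) and hypoxia (y axis), both on the FPKM scale with log axes, with large subunit genes in green and small subunit genes in purple; each point is a mean of 3 libraries, the solid line is equality and the dotted lines are 2-fold differences. MRPS24, near 0, lies far from the rest, MRPS18C lies below the lower dotted line, MRPS6 lies close to the upper one, and the other genes lie along the line of equality between the dotted lines.

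Members of the large subunit did not change past the threshold after 8 h at 1% oxygen. With limma, 0 of 47 tested genes had an adjusted p below 0.05 in either direction, beside 10 of 10237 genes in the whole table (0.0977%), all of them higher in hypoxia; 0 of the 47 had an unadjusted p below 0.05, beside 275 genes (2.69%). Run on the recovered reads, edgeR and DESeq2 also called 0 of them, beside 10 and 50 of all 10237 genes tested. Of the 47 log2 differences 31 were positive and 16 negative, with a median of 0.04 and a range from -0.34 (MRPL4) to 0.39 (MRPL17), beside a median of 0.00 over all genes. The direction of that median rests on single libraries, since it was -0.14 without hypoxia replicate 1 and 0.25 without hypoxia replicate 2. The 95% confidence interval of the difference lay within a 2-fold change in either direction for 39 of the 47. For the other 8 it reached beyond 2-fold on at least one side.

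Among large subunit proteins of families shared with bacteria, 30 were tested, 22 differences were positive and the median was 0.05. MRPL17, a protein near the exit of the tunnel through which the new chain leaves, had 3460, 3393 and 3218 size-factor-scaled reads in normoxia and 5449, 3465 and 4549 in hypoxia. The groups did not overlap, but the lowest hypoxia library lay just above the highest normoxia library. The log2 difference was 0.39 ± 0.22 (SE; limma adjusted p = 1.00). MRPL4, a constituent of the tunnel wall in bacteria, had 1838, 1617 and 2254 in normoxia and 1752, 1309 and 1440 in hypoxia, with overlapping groups and a log2 difference of -0.34 ± 0.22 (SE; limma adjusted p = 1.00). MRPL24, MRPL34 and MRPL36 had differences of 0.26, 0.25 and 0.27, and MRPL13 and MRPL47 of -0.24 and -0.17, each with overlapping groups. MRPL12, which forms the flexible stalk that recruits translation factors, had a difference of 0.10 ± 0.37 (SE), and 68.2% of its exon length is shared with the gene AC139530.2 on the same strand.

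Among the mitochondria-specific large subunit proteins, 17 were tested, 9 differences were positive and the median was 0.01. MRPL45, which lies at the tunnel exit and helps hold the ribosome to the inner membrane, had 1082, 1211 and 1386 scaled reads in normoxia and 1627, 1298 and 1810 in hypoxia. Hypoxia replicate 2 fell within the normoxia range, and the log2 difference was 0.36 ± 0.21 (SE; limma adjusted p = 1.00). MRPL58, a peptidyl-tRNA hydrolase built into the large subunit, had a difference of -0.08 ± 0.36 (SE). MRPL37 had -0.16, MRPL41 -0.06 and MRPL50 -0.28, the last with 112 to 581 scaled reads in normoxia and 110 to 280 in hypoxia.

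Small subunit genes did not pass the threshold either. With limma, 0 of 28 tested genes had an adjusted p below 0.05, beside 10 of all 10237 genes tested. With edgeR and DESeq2 0 were called as well, beside 10 and 50 of all genes. The limma fit gave 1 gene, MRPS6, an unadjusted p below 0.05, which is 3.57% of the 28 beside 2.69% of all tested genes. Of the log2 differences 19 were positive and 9 negative, with a median of 0.06 and a range from -0.78 (MRPS18C) to 0.90 (MRPS6). The median was -0.03 without hypoxia replicate 1 and 0.22 without hypoxia replicate 2. The 95% interval lay within 2-fold in either direction for 23 of the 28. Over both subunits, normoxia and hypoxia libraries did not overlap for 2 of the 75 tested genes (MRPL17 and MRPS6), both with hypoxia higher, beside 7.48% of all tested genes (4.77% with hypoxia higher).

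The small subunit members of families shared with bacteria (15 tested) had a median log2 difference of 0.02 with 9 positive. The 10 specific to mitochondria had a median of 0.11 with 9 positive, and all 10 lay between -0.10 and 0.20. Of the latter, MRPS27, which carries RNA-binding repeats, had 0.20 ± 0.26 (SE), MRPS34 0.14 ± 0.21 and MRPS26 0.04 ± 0.24. Of the former, MRPS12, a protein of the decoding centre, had -0.07 ± 0.22 (SE), MRPS7 -0.13, MRPS2 -0.12, MRPS15 0.26, MRPS28 0.31 and MRPS17 0.05. MRPS30 and MRPS18A carry small subunit symbols but sit in the large subunit, and their differences were -0.25 ± 0.30 and -0.14 ± 0.29 (SE). For MRPS18A, 604 of 1284 exon bases overlap RSPH9 on the opposite strand, and no source used here gives the strand setting. MRPS36, which is now placed in the oxoglutarate dehydrogenase complex rather than in the ribosome, had 0.25 ± 0.34 (SE).

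**Figure D2:**
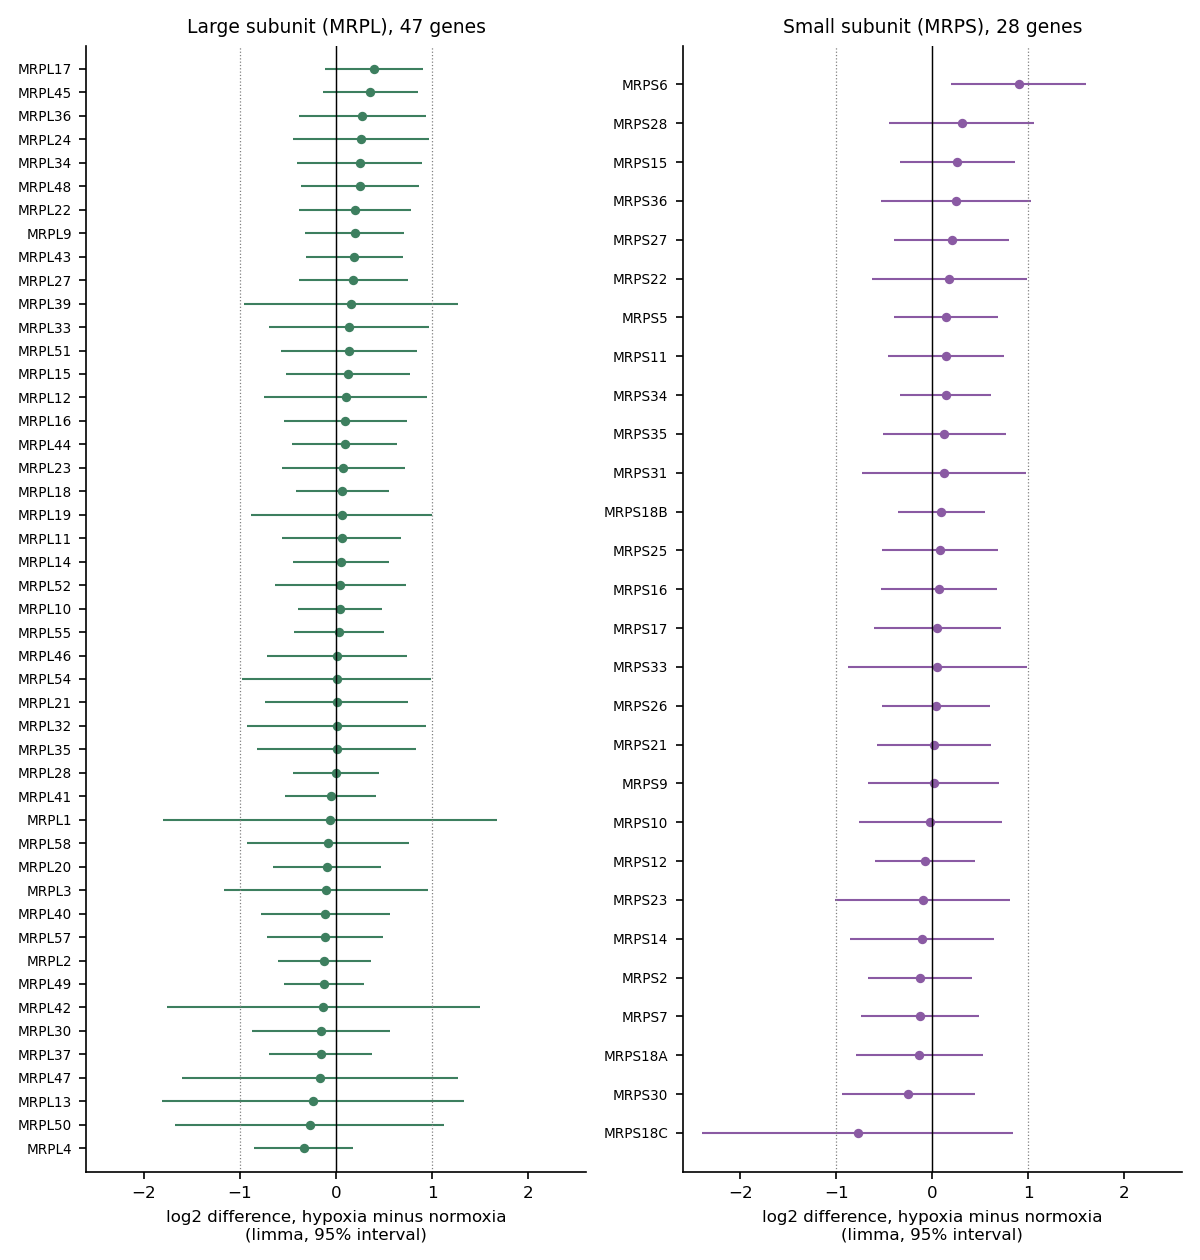
Log2 difference between hypoxia and normoxia (x axis, limma on the FPKM scale plus 0.1) for the 47 tested large subunit genes (left) and the 28 tested small subunit genes (right), in order of size; points are estimates, bars are 95% confidence intervals and dotted lines mark 2-fold. MRPS6 is the gene whose interval does not reach 0 (0.20 to 1.60), and the widest intervals belong to genes such as MRPL1 (-1.81 to 1.67) and MRPS18C (-2.40 to 0.84).

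MRPS6 had the largest difference of all members. It had 1588, 1721 and 1167 scaled reads in normoxia and 1829, 3674 and 3103 in hypoxia. All 3 hypoxia libraries were above all 3 normoxia libraries, hypoxia replicate 1 by a small margin. The means were 1492 ± 289 and 2869 ± 944 (SD, n = 3), a 1.92-fold ratio, and the log2 difference was 0.90 ± 0.30 (SE; limma unadjusted p = 0.0185, adjusted p = 1.00). Its adjusted p was 0.573 with DESeq2 and 0.18 without normoxia replicate 3 and hypoxia replicate 2, a setting chosen after the data were seen, and ran from 0.772 to 1.00 under the other alternatives. MRPS6 spans chr21:34073224-34143034 on the plus strand of GRCh38. SLC5A3, which encodes a sodium-coupled myo-inositol transporter, begins at 34073570 on the same strand, and the genes share 273 exon bases. SLC5A3 had 513, 825 and 1119 scaled reads in normoxia and 1247, 3255 and 2532 in hypoxia, again without overlap, with a log2 difference of 1.46 ± 0.42 (SE; limma unadjusted p = 0.00906, adjusted p = 1.00, and 0.13 with DESeq2). Both genes had their highest value in hypoxia replicate 2 and, within hypoxia, their lowest in replicate 1. What the shared bases and the shared start region contribute to the MRPS6 values was not tested.

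The 3 paralogs of MRPS18 encode alternative versions of a bacterial protein that sit in different places in the mitochondrial ribosome. MRPS18C had 151, 196 and 1048 scaled reads in normoxia and 254, 108 and 217 in hypoxia. Normoxia replicate 3 stood far above the other 5 libraries, and the other normoxia libraries lay within the hypoxia range. The log2 difference of -0.78 ± 0.70 (SE; limma adjusted p = 1.00) was 0.07 without normoxia replicate 3. Its exons overlap those of ABRAXAS1 on the opposite strand over 40.2% of their length, and ABRAXAS1 averaged 106 scaled reads. MRPS18B, in the small subunit, was among the steadiest members, with 961, 966 and 842 scaled reads in normoxia and 1065, 858 and 1035 in hypoxia and a log2 difference of 0.09 ± 0.20 (SE). MRPS18A had 405, 418 and 706 in normoxia and 552, 368 and 443 in hypoxia, so its groups overlapped.

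**Figure D3:**
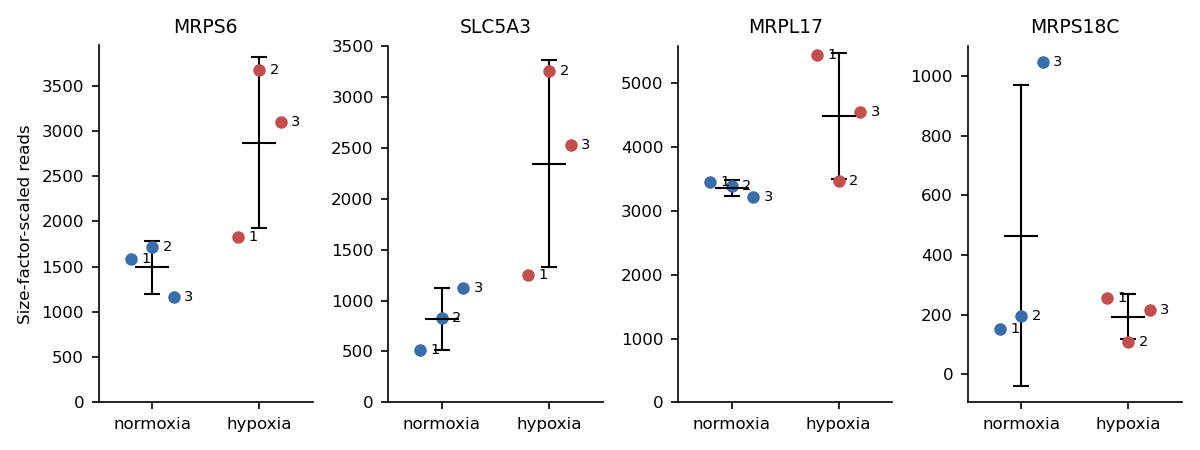
Size-factor-scaled reads (y axis) of MRPS6, its neighbour SLC5A3, MRPL17 and MRPS18C in each library, with normoxia in blue, hypoxia in red and replicate numbers beside the points; the bars are mean and SD (n = 3 per group). MRPS6, SLC5A3 and MRPL17 have no overlap between groups, and in MRPS18C normoxia replicate 3, at 1048, stands alone.

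For the mitochondrial ribosomal protein genes, as for most genes tested, replicates of a group lay farther apart than the group means. The log2 range within normoxia had a median of 0.56 over the 75 tested genes and that within hypoxia 0.73, beside a median absolute difference between the groups of 0.12. Over all tested genes the same values were 0.69, 0.64 and 0.17. The difference between groups was below the larger of the within-group ranges for 75 of 75 members and for 96.2% of all tested genes. Relative to each gene's mean over the 6 libraries, the median large subunit gene stood at -0.15, -0.05 and 0.14 on the log2 scale in normoxia and at 0.38, -0.42 and 0.13 in hypoxia. The median small subunit gene stood at -0.10, -0.04 and 0.08 in normoxia and at 0.25, -0.33 and 0.17 in hypoxia. Over all tested genes the same medians stayed between -0.03 and 0.03. Hypoxia replicates 1 and 2 were thus the highest and the lowest library, and the normoxia libraries lay between them.

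Of the 75 genes, 49 had their lowest value in hypoxia replicate 2, whereas 17.5% of all tested genes did. Hypoxia replicate 1 held the highest value of 31 and normoxia replicate 3 that of 28, beside 14.5% and 27.4% of all tested genes. Normoxia replicate 3 also held the lowest value of 17 of the 75 members, beside 28.3% of all tested genes. The members' deviations spread most in that library (SD 0.60 across the 75 genes, from -0.85 for MRPL12 to 2.08 for MRPS18C). As a share of all reads assigned to genes, the 78 members took 0.410%, 0.464% and 0.516% at normoxia, against 0.532%, 0.345% and 0.502% at hypoxia. The group means of that share were 0.463% ± 0.0531 and 0.460% ± 0.101 (SD, n = 3), and the groups overlapped. Summed size-factor-scaled reads of the epithelial markers, 57419, 55489 and 89053 in normoxia and 79319, 48492 and 60573 in hypoxia, were highest in normoxia replicate 3, then in hypoxia replicate 1, and lowest in hypoxia replicate 2. Those of the endothelial markers, 129529, 106975 and 62045 in normoxia and 67360, 170863 and 98166 in hypoxia, stood in nearly the reverse order. Single markers departed from these orders, such as TEK, lowest in normoxia replicate 1, MUC1, lowest in normoxia replicate 3, and KRT8, highest in hypoxia replicate 1. The part of these markers in the members' levels was not tested.

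**Figure D4:**
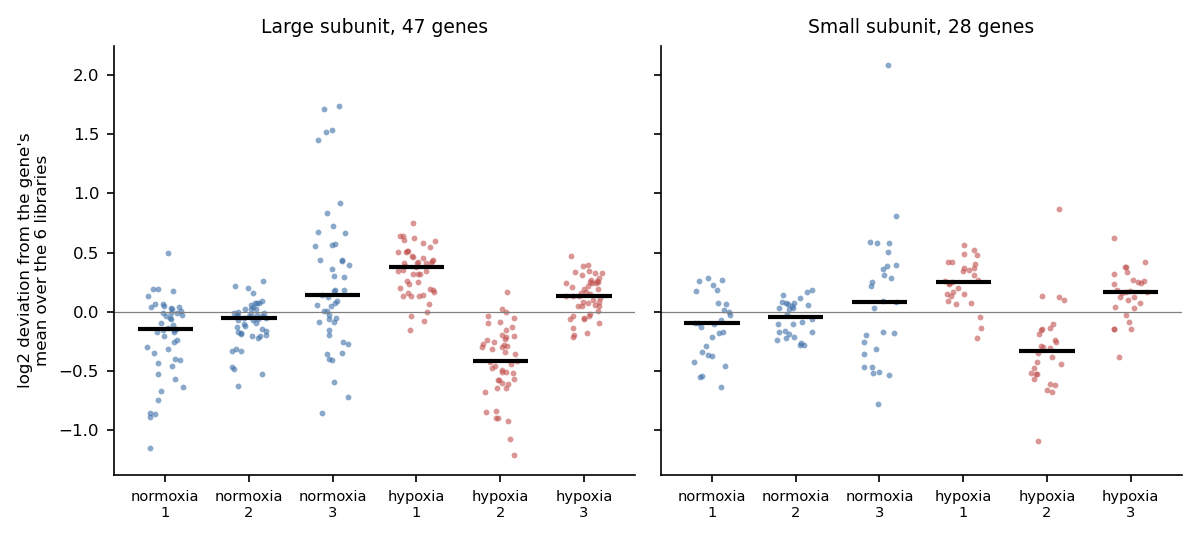
Log2 deviation of each tested gene from its mean over the 6 libraries (y axis) in each library (x axis), large subunit on the left and small subunit on the right, with normoxia in blue and hypoxia in red; each point is a gene and black bars are medians. Medians of the large subunit run from -0.42 in hypoxia replicate 2 to 0.38 in hypoxia replicate 1, and the points of normoxia replicate 3 spread most.

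Within libraries, the members' deviations varied with the GC content of their transcripts. Across the 75 members, Pearson's r between the GC percentage and the log2 deviation was 0.60, 0.33 and -0.42 at normoxia, and -0.20, 0.40 and -0.45 at hypoxia. Across all genes tested these r were 0.61, 0.23 and -0.52 at normoxia, and -0.32, 0.46 and -0.29 at hypoxia. Genes within a library are not independent, and these values are descriptions. Split at a GC content of 45%, a value chosen after the data had been seen, the 30 members below it had medians of -0.42, -0.10 and 0.53 in normoxia, against 0.41, -0.59 and 0.25 in hypoxia. The 45 members above it had medians of -0.01, -0.01 and 0.01 in normoxia, against 0.24, -0.26 and 0.12 in hypoxia. The difference between hypoxia and normoxia had an r with GC content of 0.02 across the 75 members. With a correction of each library for GC content, the medians of the large subunit were -0.18, -0.03 and 0.20 in normoxia and 0.29, -0.46 and 0.14 in hypoxia, about as far apart as before it. Those of the small subunit were -0.03, 0.01 and -0.10 in normoxia and 0.21, -0.29 and 0.14 in hypoxia, so normoxia replicate 3, the highest normoxia library before the correction, was the lowest after it. In both subunits hypoxia replicates 1 and 2 stayed the highest and the lowest of the 6 libraries. The corrected group difference had a median of 0.01 in the large and 0.03 in the small subunit, and 0 members were called.

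**Figure D5:**
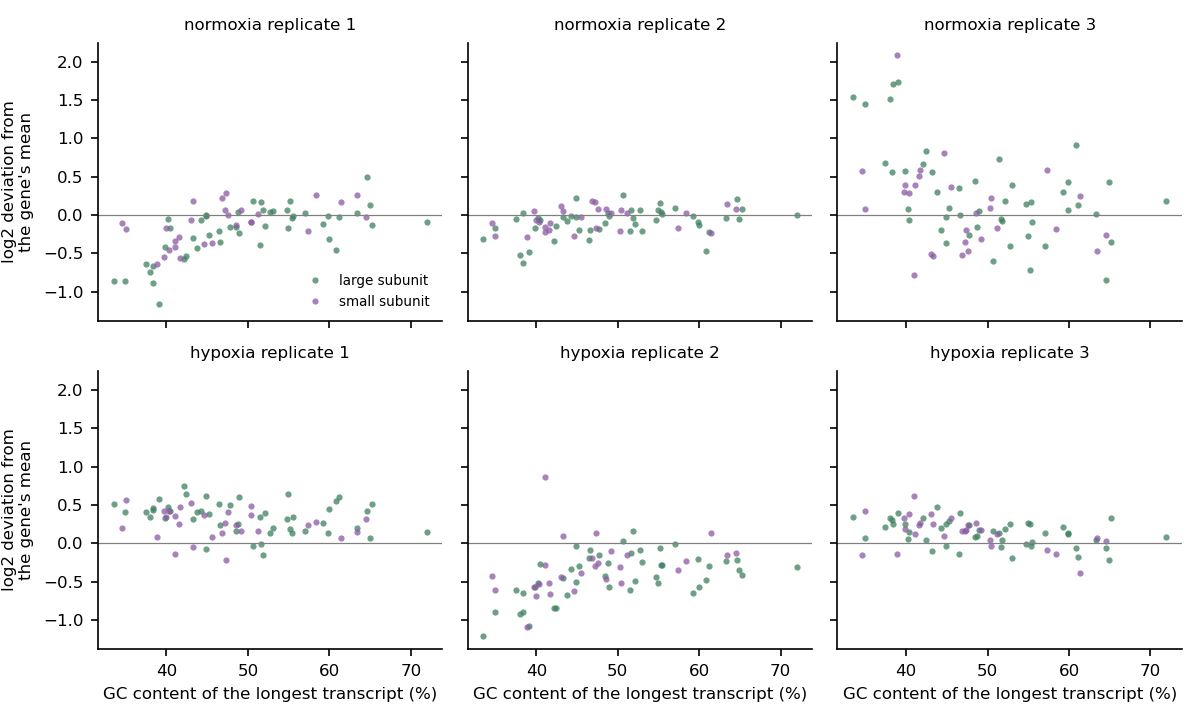
Log2 deviation of each tested gene from its mean over the 6 libraries (y axis) against the GC content of its longest transcript in percent (x axis), 1 panel per library, large subunit genes in green and small subunit genes in purple. In normoxia replicates 1 and 2 and in hypoxia replicate 2 genes of low GC lie mostly below 0 and in normoxia replicate 3 above it.

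After MRPS18C, whose highest library was 9.71 times its lowest, the widest spreads belonged to 3 other AT-rich members. MRPL1, MRPL13 and MRPL42 are large subunit proteins, the first 2 of families shared with bacteria. MRPL1 had 142, 228 and 1075 scaled reads in normoxia and 479, 150 and 422 in hypoxia. MRPL13 had 288, 421 and 1546 in normoxia and 754, 223 and 671 in hypoxia, and MRPL42 had 319, 387 and 2082 in normoxia and 857, 315 and 734 in hypoxia. In each of them normoxia replicate 3 was the highest of the 6 libraries, and hypoxia replicate 2 lay near the low normoxia libraries while hypoxia replicates 1 and 3 lay between. Their ratios of highest to lowest library were 7.57, 6.93 and 6.60, and their log2 differences over all libraries were -0.07, -0.24 and -0.13.

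Leaving out normoxia replicate 3 and hypoxia replicate 2 together changed the counts. This setting was chosen after the levels of the members in those libraries had been seen, and since the first is high and the second low for many members, the choice itself moves the differences upward. Under it, 5 of 47 large subunit genes passed the limma threshold, all higher in hypoxia, and 0 of 28 small subunit genes did. The genes were MRPL1 (log2 difference 1.30, adjusted p = 0.0107), MRPL13 (1.01), MRPL39 (0.99), MRPL42 (1.11) and MRPL47 (0.97). Of all tested genes 7.87% were called under the same setting, 5.49% as higher. The median difference was then 0.34 in the large and 0.28 in the small subunit. Without hypoxia replicate 2 alone, 0 members were called, and MRPL17, MRPL24, MRPL36, MRPL45 and MRPS36 had an unadjusted p below 0.05, 5 of 75 beside 4.12% of all genes.

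The 78 genes lie on 21 chromosomes. In GENCODE 29 the start of 17 of them (21.8%) lies within 1000 bp of the start of a protein-coding gene read in the opposite direction, beside 7.38% of all protein-coding genes. The share was 14 of 49 in the large subunit and 3 of 29 in the small. Pairs of genes that overlap at their starts are left out of these counts. MRPS11 and MRPL46 face each other at 34 bp, and their log2 differences were 0.14 ± 0.26 and 0.01 ± 0.32 (SE). MRPS11 had 1038, 955 and 1181 scaled reads in normoxia and 1558, 893 and 1140 in hypoxia, and MRPL46 had 238, 241 and 261 in normoxia and 346, 170 and 259 in hypoxia; both were highest in hypoxia replicate 1 and lowest in hypoxia replicate 2. Exons of 41 of the 78 members overlap those of another gene, and for 9 the overlap exceeds 30% of the exon length.

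The other proteins of the mitochondrial ribosome, which carry no MRP symbol, likewise held no gene past the limma threshold. All 5 tested (0 called) had positive log2 differences, with a median of 0.17. DAP3, a GTP-binding protein of the small subunit, had 1133, 1119 and 1206 scaled reads in normoxia and 1655, 1179 and 1495 in hypoxia, a log2 difference of 0.31 ± 0.21 (SE; limma adjusted p = 1.00) with overlapping groups. CHCHD1 had 0.18 ± 0.28. Of 24 tested assembly and rRNA modification factors 0 were called and 11 differences were positive (median -0.03). In that list MPV17L2, a factor in the assembly of the ribosome, had -0.50 ± 0.24 (SE), FASTKD2, an RNA-binding protein, -0.35 ± 0.60, RPUSD4, a pseudouridine synthase of the large rRNA, 0.37 ± 0.22, and TFB1M, which methylates the small rRNA, 0.50 ± 0.33. Of 14 tested translation factors 0 were called and 5 differences were positive (median -0.08). GUF1, the mitochondrial homologue of bacterial elongation factor LepA, had -0.55 ± 0.33 (SE), SLIRP, an RNA-binding partner of LRPPRC, -0.28 ± 0.58, MRRF, the ribosome recycling factor, 0.21 ± 0.26, and TSFM, the exchange factor of the elongation factor EF-Tu, 0.27 ± 0.29.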

How the data were processed

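Polyadenylated RNA of 3 normoxia and 3 hypoxia libraries was analysed from 1 table. The submitters' processing notes list CASAVA, HISAT2 2.0.5, featureCounts 1.5.0-p3 and the mouse build mm9, although all identifiers are human Ensembl identifiers. The sources used here give no annotation release or strand setting, and mm9 is the only build they name. The deposited signal, named for FPKM, is whole reads per gene that the authors divided by 1 size factor per library (0.944 to 1.06): 100% of the values were whole multiples of 1 step per library, within 0.05 of a step. Scaled reads in the text are these deposited values, with means and SDs over n = 3 per group.

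For testing, values were divided by the exon length of GENCODE 29 (GRCh38) in kb and by the mean library total (the FPKM scale). Genes at 1 or more in at least 3 libraries, 10237 in all, were fitted as log2(value + 0.1) with limma 3.58.1 (R 4.3.3), with trend and robust variance, two-sided, and Benjamini-Hochberg adjustment over all of them at 0.05. Differences understate the change of low genes. edgeR 4.0.16 and DESeq2 1.42.0 on the recovered reads, other pseudocounts and filters, a GC correction, a replicate block and leaving out libraries were alternatives. The fit was tested on simulated reads with the same dispersion for every gene and no GC effect. The spread between these libraries was not simulated.

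Named genes were, per subunit, the 5 largest differences each way, the 2 highest and 2 lowest levels, any gene past the test, MRPL12, MRPL58, MRPS12, MRPS30, MRPS36 and the MRPS18 paralogs; in each other list, the 2 largest each way. MRPL1, MRPL3, MRPL39, MRPL42, MRPL46, MRPS10, MRPS11, MRPS23, MRPL52, MRPL54, SLC5A3, MRPL20 and MRPL20-AS1 were named after their values were seen. The members and lists were chosen with earlier results of these data known. Intervals are limma's and cover the spread of these libraries only. Replicate libraries differed by more than sampling noise. Each was counted as 1 sample, and the labels do not say whether they are separate cultures.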

Additional observations from a re-analysis of the deposited data

How the results depend on the processing

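No member was called under any setting that kept all libraries or left out 1, and the count of 0 in the small subunit held under all. The number of all genes called higher, 10, was 3 with no filter, 45 with DESeq2, 20 with GC correction and 1 to 19 leaving out 1 replicate. The number called lower, 0, was 1 with a pseudocount of 1, with no filter and with GC correction, 5 with DESeq2 and 0 to 1 leaving out 1 replicate. The labels do not say whether replicate numbers pair the samples. Correlations of same-numbered libraries were -0.40, 0.24 and 0.22. They cannot decide it, because deviations from a mean of 3 libraries sum to 0 in each group. With a replicate block 19 genes were called higher, and 28 higher and 2 lower with the block and GC correction together, 0 of them members. Without normoxia replicate 3 and hypoxia replicate 2 (added after seeing the data) 562 genes were called higher and 244 lower, with 5 large subunit genes called; the cause was not tested. Under that setting the log2 difference changed sign for MRPL1 (1.30), MRPL12 (-0.17), MRPL13 (1.01), MRPL20 (0.15), MRPL20-AS1 (-0.19), MRPL42 (1.11), MRPL37 (0.076), MRPL41 (0.16), MRPL47 (0.97), MRPL50 (0.76), MRPL58 (0.54), MRPS7 (0.18), MRPS17 (-0.085), MRPS18A (0.27), MRPS18C (0.43), MRPS26 (-0.093), MRPS27 (-0.015), MRPS30 (0.13), FASTKD2 (0.69), SLIRP (0.79) and GABPB1 (0.13). These are genes named elsewhere in the text, and other members changed sign too, such as MRPL3 (0.68), MRPS10 (0.48) and MRPS23 (0.56). MT-RNR2 was -0.10 with edgeR, -0.12 with DESeq2 and -0.031 with GC correction, and MRPL46 -0.015 with GC correction, also with the block.

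Leaving out 1 replicate, the log2 difference ran from -0.66 to 0.78 for MRPL1, -0.30 to 0.38 for MRPL12, -0.73 to 0.47 for MRPL13, -0.11 to 0.33 for MRPL15, -0.28 to 0.11 for MRPL20, -0.049 to 0.40 for MRPL34, -0.18 to 0.62 for MRPL39, -0.14 to 0.083 for MRPL41, -0.61 to 0.69 for MRPL42, -0.22 to 0.27 for MRPL46, -0.58 to 0.55 for MRPL47, -0.78 to 0.38 for MRPL50 and -0.30 to 0.26 for MRPL58. In the small subunit it ran from -0.28 to 0.036 for MRPS2, -0.34 to 0.10 for MRPS7, -0.062 to 0.34 for MRPS11, -0.23 to 0.038 for MRPS12, -0.032 to 0.21 for MRPS17, -0.28 to 0.12 for MRPS18A, -1.29 to 0.073 for MRPS18C, -0.18 to 0.19 for MRPS26 and -0.017 to 0.34 for MRPS27. Of other genes, it ran from -0.039 to 0.47 for CHCHD1, -0.22 to 0.42 for MRPL20-AS1, -0.73 to 0.17 for FASTKD2, -0.70 to 0.35 for SLIRP, -0.16 to 0.56 for TFAM and -0.24 to 0.44 for MT-RNR2. Each comparison rests on at most 3 libraries a group, and the part of sequencing depth in its spread was not tested.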

Other observations

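The mitochondrial genome supplies the RNA of the ribosome these proteins join. MT-RNR1, the small subunit rRNA, had 13680, 13983 and 22243 scaled reads in normoxia and 38327, 34424 and 26427 in hypoxia, with no overlap between groups. The log2 difference was 1.01 ± 0.26 (SE; limma unadjusted p = 0.00495, adjusted p = 0.937), so it did not pass the threshold. Its adjusted p was 0.00668 without normoxia replicate 3 and hypoxia replicate 2 together, the setting chosen after the data were seen, and ran from 0.139 (without normoxia replicate 3) to 1.00 under the 14 others. MT-RNR2, the large subunit rRNA, had 115270, 123442 and 295447 in normoxia and 223650, 128992 and 146567 in hypoxia, with a difference of 0.00 ± 0.40 (SE). Like many members, it was highest in normoxia replicate 3. The libraries were made from polyadenylated RNA, and how well that selection captures these rRNAs was not tested.

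Of 10 tested regulators of mitochondrial transcription and biogenesis 0 were called by limma, and 5 differences were positive (median -0.03). PPRC1, a coactivator, had -0.58 ± 0.33 (SE), GABPB1, a subunit of the ETS factor GABP, -0.31 ± 0.34, TFAM, which packages mitochondrial DNA and starts its transcription, 0.11 ± 0.44, and NRF1 0.19 ± 0.25. MRPL20-AS1, a noncoding gene opposite MRPL20 that the symbol rule leaves out, had 0.19 ± 0.37, and MRPL20 -0.09 ± 0.24.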
